A study of Mus musculus with 90 samples.

Results

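A group of 6 genes tied to fat storage was followed in mouse liver, namely Pparg, Cd36, Fabp4, Cidea, Cidec, and Mogat1. The genes were chosen by symbol, by what they are known for, and with earlier results of these data known. They came from the 24312 gene symbols of a table of liver RNA that covers 54 mice. Where several RefSeq transcripts carried a symbol, the one with the highest mean over all libraries was used. Pparg had 4 such transcripts, Cd36 had 5, and Cidec had 2, and over the 54 libraries the others of a gene followed the one used with a Pearson correlation of at least 0.9927. All 6 genes were present in the table.

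Pparg encodes PPAR gamma, a nuclear receptor that binds DNA together with RXR and drives fat storage in adipocytes. Its level in healthy hepatocytes is low, and the fat-laden livers of obese rodents are known for a rise of PPAR gamma and of target genes that adipocytes use. Cd36 takes up fatty acids at the cell surface, Fabp4 carries them in the cytosol, Cidea and Cidec help lipid droplets to fuse and grow, and Mogat1 joins fatty acids to monoacylglycerol on the way to triglyceride.

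Each library held the liver RNA of 1 mouse on a C57BL/6 background (by the methods C57BL/6N, and C57BL/6J for the L-IRSdKO line), trained to night-restricted feeding (NRF), with food given at lights-off (ZT12) and livers taken at ZT14, or at ZT10 in 1 group. In the diet experiment, male wild-type mice were put at 5 weeks of age on a high-fat diet (obese) or on chow (lean), each for 10 weeks with free access, followed by 4 days of NRF, and were fed or left unfed, with 3 mice per group. The uninjected NRF mice (wild type, on chow, 10 weeks old) gave 2 livers at ZT10 and, at ZT14, 2 unfed and 2 fed livers. The injected wild-type mice, 10 weeks old and 4 per group, received vehicle, dexamethasone (dex, a glucocorticoid, 1 mg/kg), S961 (an insulin receptor antagonist, 44 nM per mouse by the labels, whereas the methods give a dose per kg), or dex with S961 before the meal, and a vehicle group stayed unfed. L-GRKO and control livers (4 each, unfed) came from adult Nr3c1 fl/fl mice given AAV-CRE or AAV-GFP 2 weeks before NRF. The virus carried a hepatocyte promoter, so that the deletion of the glucocorticoid receptor (GR) was aimed at adult hepatocytes and spared other liver cells. L-IRSdKO mice (4) carried Irs1 fl/fl and Irs2 fl/fl with Alb-Cre, which acts from before birth, and their controls (4) carried the floxed alleles alone. Both of these groups were fed, 10 weeks old, and injected with dex (1 mg/kg), so that the controls also carried the hormone.

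The libraries had the marks of liver. A sum over 6 hepatocyte genes, Alb among them, lay between 29258 and 75509 RPKM in the diet, NRF, injected, and L-GRKO experiments and between 2496 and 3066 RPKM in the L-IRSdKO experiment, so that levels were not compared across experiments. RPKM is a read count divided by the length of the transcript and by the depth of the library. The targeted genes were low where the labels said so, with Nr3c1 at 3.93 to 5.35 RPKM in L-GRKO against 12.8 to 16.2 in controls and Irs1 at 0.149 to 0.321 against 2.21 to 4.73 RPKM. Irs2 was at 0.272 to 1.00 RPKM in L-IRSdKO and at 0.614 to 5.61 in controls, ranges that overlapped. From the size of 1 read in the low values, the diet libraries held 16.9 to 62.3 M (mega) reads, the NRF libraries 26.1 to 38.3 M, the injected libraries 6.47 to 13.4 M, and the L-IRSdKO libraries 3.64 to 4.48 M. The depth so estimated for the L-IRSdKO libraries lay well below the aligned reads that the study lists for them, so that read numbers given for them may be too low. In the diet experiment, unfed obese mouse 2 and fed obese mouse 3 stood apart from the other obese mice, and values without them are given where a gene could still be tested. These 2 were picked after the data were seen, being the highest of their groups for all 6 genes. Lower obese means and weaker correlations without them follow in part from that choice. The numbers of the mice are those of the labels. In bulk tissue, fewer cells of a type and less RNA per cell cannot be told apart.

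As a description over all 54 libraries, RPKM being per length, the mean levels ran from Fabp4 (13.9 RPKM, 4.57 to 60.1) and Cd36 (12.7, 4.32 to 74.1) over Cidec (4.97, 0.745 to 16.9) and Pparg (4.13, 0.926 to 9.14) to Mogat1 (0.464, at 0 in 4 libraries, 7.06 at most) and Cidea (0.165, at 0 in 35 libraries, 3.88 at most). The ranges of neighbours in this order overlapped, and the order changed between experiments. In the NRF, L-GRKO, and diet experiments the mean of Cd36 was above that of Fabp4, and that of Pparg above that of Cidec. The diet means of Cd36, Fabp4, Pparg, and Cidec were 15.8, 11.6, 4.52, and 4.14 RPKM. The 2 genes of lowest level rested on few reads, and in the NRF and injected experiments Cidea reached no more than 2 reads in any library. A filter at a mean of 0.5 RPKM per experiment kept all 6 genes in the diet experiment, 5 in the L-IRSdKO experiment (not Cidea), and 4 in the other experiments (neither Cidea nor Mogat1). A gene under the filter was not tested, and its values are given as levels.

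In mm9 (GENCODE), Pparg lies on the plus strand at chr6:115311239-115440419, Cidec on the minus strand at chr6:113374628-113385754, Cd36 on the minus strand at chr5:17287508-17394777, Fabp4 on the minus strand at chr3:10204347-10208576, Mogat1 on the plus strand at chr1:78507566-78534748, and Cidea on the plus strand at chr18:67503218-67527448. Mogat1 overlaps the gene model BC035947 and Cidea overlaps B430212C06Rik, and since the strand of the counting was not given in the sources used here, reads of these pairs cannot be told apart. The study lists sites bound by GR, sites bound by FOXO1 (the factor that insulin signaling drives out of the nucleus), and DNase hypersensitive sites (DHSs, open chromatin). By the study, the GR and FOXO1 sites were called in unfed livers at ZT14, and the DHSs over unfed and fed livers at ZT14. These lists do not describe obese, injected, or knockout livers. Within 50 kb of the outer start of the gene, all 6 genes had a DHS, where 88.4% of 19783 genes had one. A GR site lay in that window for 3 of the 6 (Cd36 with 5 sites, Cidec with 3, Fabp4 with 2), against 33.8% of all genes. A FOXO1 site lay there for the same 3 genes (3, 3, and 1 sites), against 35.4% of all genes. These shares came from 6 genes and were not tested.

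**Figure D1:**
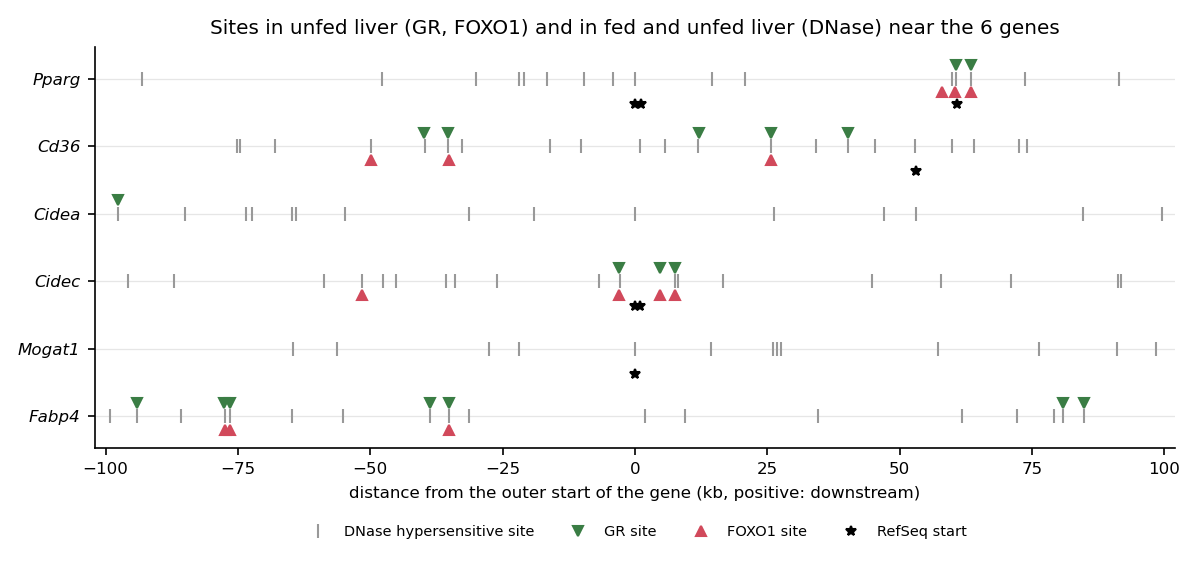
Position of GR sites (green), FOXO1 sites (red), and DHSs (grey ticks) against the outer start of each gene, in kb on the horizontal axis with downstream to the right, 1 row per gene, and stars for RefSeq starts. The nearest 3 sites of each factor at Cidec sat between 3119 bases upstream and 7578 bases downstream of its start. The 2 GR and 3 FOXO1 sites within 100 kb at Pparg lay near the start 60.8 kb inside the gene, and Mogat1 had DHSs only.

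Counted from outer starts, Cidec had the nearest pair. Its GR site was centered 3002 bases and its FOXO1 site 3119 bases upstream of the start, the GR site overlapped a DHS and the FOXO1 site did not, and 63 bases belonged to both. Pparg had no GR or FOXO1 site within 50 kb of its outer start, but has 3 RefSeq starts, and the third, 60.8 kb inside the outer start, is the start of the Pparg2 isoform known from adipocytes. There a GR site was centered 283 bases upstream, a FOXO1 site 321 bases upstream, and a DHS 258 bases upstream. All 3 reached into the promoter window of 300 bases, the GR site by 58 bases, the FOXO1 site by 20, and the DHS by 77. The RPKM values cover a gene as a whole and do not separate its starts. Counted from any coding start instead of the outer start, a choice made after seeing the data, 4 of the 6 genes had a GR site within 50 kb and 4 a FOXO1 site, where 35.3% and 37.1% of 18206 genes with a coding start had one. These shares were not tested either. Cd36 had a GR site in an intron 12063 bases inside its outer start. Counted from any of its 3 coding starts, the nearest GR site of Cd36 was 964 bases away.

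These 4 stretches are shown because they hold the sites nearest to members, or the letters searched for. AGGTCA is the hexamer to which nuclear receptors such as PPAR and RXR bind in pairs, with TGACCT on the opposite strand. It was found in 16.3% of 32851 promoters of 300 bases, 24.0% of GR sites, 25.6% of FOXO1 sites, and 16.7% of DHSs, so that a match in 1 window is common. A direct repeat of AGGTCA with 1 base between (either strand), which also counts among the matches to AGGTCA, was found in 0.0396% of promoters. It was in none of the windows searched near the members. That search left out every site and the promoter of Cidea, and the promoter of Fabp4. All 4 stretches are written on the plus strand, from mm9 or, for the promoter at the first Pparg start, from the RefSeq table of GRCm38.p6.
Pparg start 3, mm9 chr6:115371834-115372133, capitals mark the 58 bases also in the GR site: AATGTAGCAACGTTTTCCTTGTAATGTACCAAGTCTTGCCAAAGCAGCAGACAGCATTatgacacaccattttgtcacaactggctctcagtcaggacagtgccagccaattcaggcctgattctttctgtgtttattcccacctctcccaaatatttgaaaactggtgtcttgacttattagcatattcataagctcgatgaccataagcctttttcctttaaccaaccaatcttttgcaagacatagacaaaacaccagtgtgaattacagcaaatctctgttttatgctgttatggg
Pparg start 1, GRCm38.p6 chr6:115360894-115361193, capitals mark AGGTCA: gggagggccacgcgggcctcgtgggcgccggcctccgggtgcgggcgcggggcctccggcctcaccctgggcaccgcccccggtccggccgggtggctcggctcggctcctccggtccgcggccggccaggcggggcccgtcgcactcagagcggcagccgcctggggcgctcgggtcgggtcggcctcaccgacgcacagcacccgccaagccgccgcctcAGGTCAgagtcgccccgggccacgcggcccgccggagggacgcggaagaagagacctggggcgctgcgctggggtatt
Cidec upstream sites, mm9 chr6:113388667-113388963, capitals mark the 63 bases in both the GR and the FOXO1 site: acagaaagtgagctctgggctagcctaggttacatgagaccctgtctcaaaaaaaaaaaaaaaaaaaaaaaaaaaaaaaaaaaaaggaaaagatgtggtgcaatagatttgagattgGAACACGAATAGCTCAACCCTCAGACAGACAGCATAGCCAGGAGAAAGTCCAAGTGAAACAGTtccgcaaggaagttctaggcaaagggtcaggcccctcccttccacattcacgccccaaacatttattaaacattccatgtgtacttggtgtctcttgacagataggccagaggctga
Cd36 intron GR site, mm9 chr5:17382625-17382804, capitals mark TGACCT: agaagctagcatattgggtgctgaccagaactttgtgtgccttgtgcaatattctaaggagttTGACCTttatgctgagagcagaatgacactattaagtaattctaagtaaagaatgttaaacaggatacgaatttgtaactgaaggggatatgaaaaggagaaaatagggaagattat

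In the obese livers, Cd36, Cidea, Cidec, and Mogat1 were highest in the same mouse of the unfed group and in the same mouse of the fed group, and the other obese mice lay closer to the lean mice. Pparg was higher in unfed obese than in unfed lean mice on average and Fabp4 lower, with overlap in both. With limma and p-values adjusted over all genes (Benjamini-Hochberg, threshold 0.01), 0 of the 6 passed in unfed mice, where 0.771% of all 11541 genes tested passed. After the meal 0 of the 6 passed, and 0 of all genes (0%). In the mean of both meal states 0 of the 6 passed against 0.199% of all genes. Cidea and Mogat1 passed the filter on low values only through the obese mice, so that their fitted values are a description with no test. Of the other 4 genes, 1 had an unadjusted limma p under 0.05 in unfed mice (Pparg) where 23% of all genes did, 0 in fed mice (20%), and 1 in the mean of both (Cd36), where 27.6% did. Every log2 difference or fold change here is on the scale of log2(RPKM + 0.5), which understates the change of low genes, and p-values measure the spread between these mice.

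Pparg, the receptor itself, was at 5.98, 8.01, and 4.62 RPKM in the unfed obese mice and at 3.70, 4.93, and 2.77 in the unfed lean mice. Of the obese mice, 2 were above all lean mice and 1 was below the highest of them. This gave a log2 difference of 0.64 (SE 0.27, adjusted p = 0.19 by limma). After the meal Pparg was at 2.71, 2.58, and 5.52 RPKM in obese and at 4.17, 5.19, and 4.02 in lean mice. Here 2 obese mice were below all lean mice and the third, fed obese mouse 3, above them, and the log2 fold change was -0.34 (SE 0.27, adjusted p = 0.52 by limma). Without the 2 mice that stood apart the values were 0.45 and -0.65.

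The meal difference of Pparg thus had opposite signs in the 2 diets. Fed against unfed, the log2 fold change was -0.75 (SE 0.27, adjusted p = 0.12 by limma) in obese and 0.23 (SE 0.27, adjusted p = 0.59 by limma) in lean mice. Feeding moved 10.3% of all genes in lean and 1.2% in obese mice past the threshold, and 0 of the 6 in either diet. Counts over the 6 include Cidea and Mogat1, whose fitted values carry no test. An unadjusted limma p under 0.05 was reached by 0 of the 6 in lean mice (36.3% of all genes) and by 1 in obese mice (25.1%). The test of the difference between diets gave -0.98 (SE 0.39, adjusted p = 0.27 by limma, unadjusted p = 0.028), and 0 of the 6 genes passed it against 0.13% of all genes (1 of 6 and 15% of all genes at an unadjusted p under 0.05). Without the 2 mice, the meal difference in obese mice was -0.88 and the interaction -1.10, neither of which passed.

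Cd36, the fatty acid transporter, was at 7.23, 74.1, and 9.64 RPKM in unfed obese mice and at 9.54, 7.86, and 6.06 in unfed lean mice. Only mouse 2 of the obese group was far from the lean range. The means were 30.3 ± 38.0 RPKM (SD, n = 3) and 7.82 ± 1.74, and the log2 fold change was 1.14 (SE 0.71, adjusted p = 0.36 by limma). In fed mice Cd36 was at 13.0, 10.2, and 31.7 RPKM in obese and at 9.44, 4.90, and 5.82 in lean livers. Every fed obese mouse was above every fed lean mouse, and the log2 fold change was 1.26 (SE 0.71, adjusted p = 0.35 by limma). Over both meal states it was 1.20 (SE 0.50, adjusted p = 0.15 by limma, unadjusted p = 0.036). Without the 2 mice that stood apart, the values were 0.11 in unfed mice, 0.78 in fed mice, and 0.45 for the mean.

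Fabp4, the cytosolic carrier of fatty acids, was also highest of its group in the 2 mice that stood apart, but in the unfed state within the lean range. It was at 8.90, 14.8, and 9.28 RPKM in unfed obese and at 17.1, 11.4, and 12.2 in unfed lean livers, with overlap. This gave -0.31 (SE 0.21, adjusted p = 0.40 by limma). After the meal it was at 10.6, 10.1, and 15.0 RPKM in obese and at 9.70, 9.74, and 10.4 in lean mice, with fed obese mouse 3 the highest. That gave 0.22 (SE 0.21, adjusted p = 0.59 by limma). Without those 2 mice the values were -0.53 and 0.05.

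Cidea, a lipid droplet protein best known from brown fat, was at 0, 3.88, and 0.321 RPKM in unfed obese mice and at 0 in all 3 unfed lean mice. In reads this was 0, 96, and 9 against 0, 0, and 0. A count of 0 allowed up to 0.0972 to 0.153 RPKM (3 reads) in the lean libraries, and against the mean of that floor per library the unfed obese mean was at least 10.8-fold higher, a value made by mouse 2. In fed mice Cidea was at 0.069, 0, and 3.35 RPKM (5, 0, and 78 reads) in obese and at 0.091, 0.041, and 0.038 RPKM (2, 1, and 1 reads) in lean livers. Apart from 1 mouse in each obese group, the libraries held 9 reads or fewer. The fitted log2 differences, 1.28 (SE 0.81) in unfed and 0.89 (SE 0.81) in fed mice, are a description, since Cidea passed the filter only through the 2 mice that stood apart. They depend on the 0.5 RPKM added and are no bounds. Without both mice Cidea was under the filter and could not be tested.

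Cidec, which enlarges lipid droplets, was at 1.05, 16.9, and 3.50 RPKM in unfed obese mice and at 2.26, 2.44, and 2.71 in unfed lean mice. The obese mice lay on both sides of a narrow lean range, with the lowest and the highest values of the experiment. The log2 fold change of 0.68 (SE 0.67, adjusted p = 0.57 by limma) turned to -0.25 without mouse 2. In fed mice Cidec was at 4.03, 2.38, and 7.22 RPKM in obese and at 2.98, 2.40, and 1.82 in lean livers, where 2 of 3 obese mice were above all lean mice. That gave 0.70 (SE 0.67, adjusted p = 0.59 by limma), and 0.34 without fed obese mouse 3 and its unfed counterpart. The mean of both states was 0.69 (SE 0.47) with all mice and 0.04 without those 2.

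Mogat1, an acyltransferase of triglyceride synthesis, was at 0.244, 7.06, and 0.654 RPKM (8, 185, and 19 reads) in unfed obese and at 0.283, 0.404, and 0.098 (9, 9, and 2 reads) in unfed lean livers. Mouse 3 was also above the lean mice, and mouse 1 was within them. As a description, the fitted log2 difference was 1.31 (SE 0.69). In fed mice it was at 0.654, 0.337, and 1.87 RPKM in obese and at 0.220, 0.316, and 0.147 in lean livers. The fed groups did not overlap, although obese mouse 2 and the highest lean mouse, the closest pair, rested on 7 and 8 reads. The fitted log2 fold change was 0.86 (SE 0.69), and over both meal states it was 1.09 (SE 0.49). Mogat1 passed the filter only through the obese mice, and without the 2 mice that stood apart it was under it, so that these values carry no test.

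**Figure D2:**
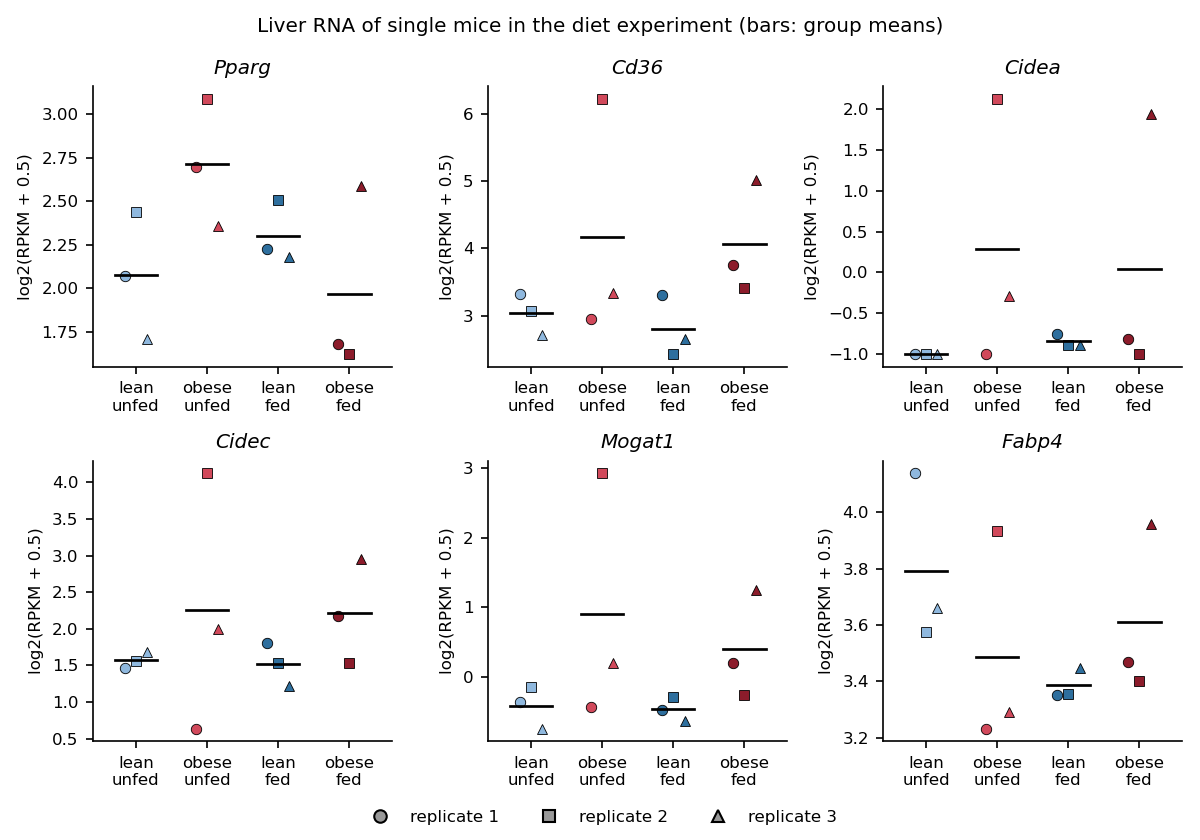
Level of the 6 genes in each mouse of the diet experiment, as log2(RPKM + 0.5) on the vertical axis of each panel (scales differ), with 1 point per mouse, its shape the mouse number, and bars for group means. Unfed obese mouse 2 (square) and fed obese mouse 3 (triangle) were the highest of their groups for all 6 genes.

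**Figure D3:**
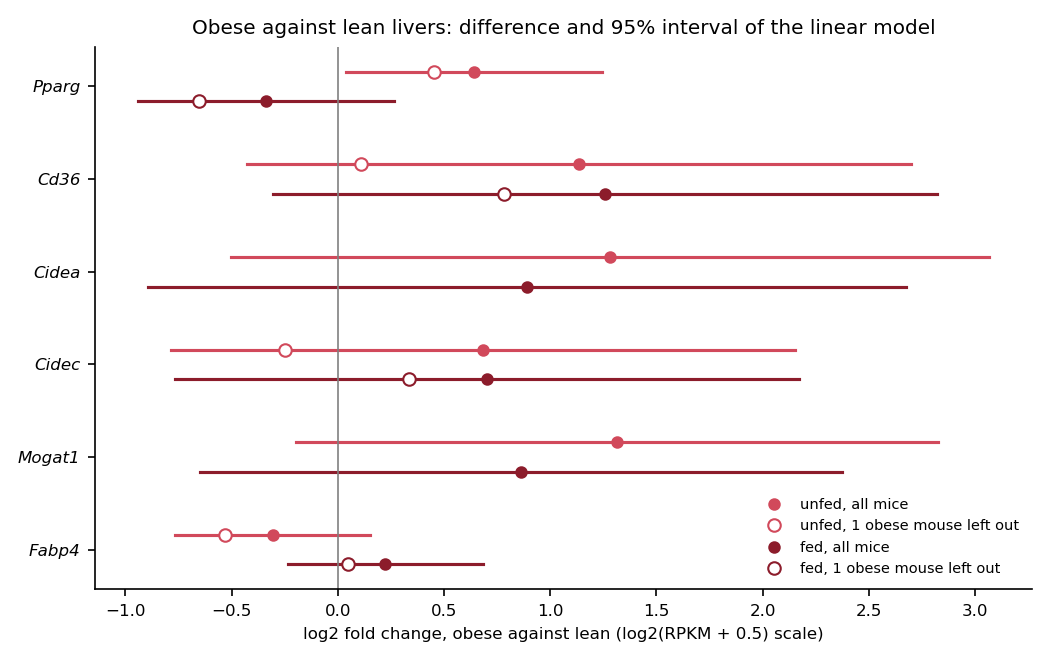
Log2 fold change of each gene between obese and lean livers on the horizontal axis, with filled points and 95% intervals from limma with all mice, and open points, drawn with no interval, without unfed obese mouse 2 and fed obese mouse 3. For Cd36 the open points lay at 0.11 and 0.78 where the filled ones lay at 1.14 and 1.26, and Cidea and Mogat1 had no open points because they fell under the filter.

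The 2 mice also differed in other readings. Of 8 adipocyte genes, Cfd (adipsin, a protease that adipocytes secrete) was at 27.5 RPKM in unfed obese mouse 2 and at 5.37 in fed obese mouse 3, and at 0.76 or less in the other 10 diet libraries. The sum of the 8 genes was 37.6 RPKM in the former, against 5.09 and 7.91 in the other unfed obese and 3.60 to 5.32 in unfed lean mice. It was 10.2 in the latter, against 4.90 and 5.74 in the other fed obese and 6.59 to 8.98 in fed lean mice. Of the rest, Adipoq, Lep, Plin1, Retn, and Ucp1 were at or near 0, with 0.164 RPKM or less in all 12 libraries. Lipe was at 9.77 RPKM in unfed obese mouse 2, the highest of the 12, at 4.77 in fed obese mouse 3, and at 3.58 to 7.91 elsewhere. Slc2a4 was at 0.233 and 0.088 RPKM in these mice and at 0.019 to 0.628 elsewhere. A sum over 8 macrophage genes was 61.8 to 82.5 RPKM in unfed obese and 78.0 to 79.9 in unfed lean mice, and 48.2 to 88.0 and 52.1 to 67.0 in fed mice. A sum over 8 endothelial genes, among which cells Cd36 and Fabp4 are also known, was lower in unfed obese (46.0 to 55.6 RPKM) than in unfed lean mice (74.1 to 88.6), without overlap, and 1 of the 8, Clec4g, passed the test. In fed mice this sum was 57.0 to 58.0 RPKM in obese and 56.1 to 62.8 in lean livers, with overlap, and 0 of the 8 passed. A sum over 5 bile duct genes was 14.4 to 25.4 RPKM in unfed obese mice, with mouse 2 the highest, and 10.5 to 12.8 in unfed lean mice, without overlap. In fed mice it was 11.7 to 18.1 and 13.8 to 20.9 RPKM, and 0 of the 4 bile duct genes tested passed in either state, with 1 and 1 at an unadjusted limma p under 0.05. The hepatocyte sum was 46384 to 53351 RPKM in unfed obese and 53367 to 63307 in unfed lean mice, and 44418 to 47639 against 54681 to 58682 in fed mice, without overlap, with 0 of 6 passing and 1 and 2 at an unadjusted limma p under 0.05. Their part in the results was not tested. Unfed obese mouse 2 held 21.3 M reads and fed obese mouse 3 held 20.02 M, near the median of 21.2 M, whereas fed obese mouse 1 held 62.3 M.

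The likeness of genes over the 12 diet libraries is given as Pearson correlations of log2(RPKM + 0.5) across libraries that share the 2 mice. Cd36, Cidea, Cidec, and Mogat1 had correlations of 0.89 to 0.96 among each other, and without the 2 mice (10 libraries) they were 0.28 to 0.64. Pparg had correlations of 0.42 to 0.62 with those 4, and -0.51 to 0.17 without the 2 mice. Among all 11541 genes, those most like Cd36 were Cryz (0.97), Mogat1 (0.96), and Ildr2 (0.95), which kept 0.89, 0.64, and 0.79 without the 2 mice. Those most like Cidec were Mogat1 (0.93), Cd36 (0.92), and Mpdu1 (0.92), with 0.56, 0.51, and 0.56 without the 2 mice. Cidea was most like Cfd (0.96), Colec12 (0.94), and Tceal8 (0.94), with 0.73, 0.67, and 0.08 without them. Mogat1 was most like Cyp2b13 (0.96), Themis (0.96), and Cd36 (0.96), with 0.63, 0.50, and 0.64 without them. Cyp2b13 was at 25.2 RPKM in unfed obese mouse 2, at 1.49 in fed obese mouse 3, and at 1.08 or less elsewhere. Pparg was most like Rhbdf1 (0.90), Ube2l6 (0.89), and Tmem106a (0.86), and Fabp4 was most like Tcn2 (0.94), Emcn (0.86), and Plvap (0.86), and without the 2 mice the first of each kept correlations of 0.91 and 0.94.

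Other genes of the pathway were described in lists. The lists were also chosen with earlier results of these data known, so that counts over them are a description. Of the PPAR alpha targets, the study had already reported higher Acot1 and Angptl4 in fed obese mice, and Angptl4 restored by S961. Of 14 partners and regulators of PPARs, 1 was lower in unfed obese than in unfed lean mice, namely Cebpb (C/EBP beta, a factor of early adipocyte formation and of the fasted liver), with means of 23.6 and 56.6 RPKM and a log2 difference of -1.25 (SE 0.145, adjusted p = 0.0027 by limma). That call was lost by limma with the compared groups alone (adjusted p = 0.0257), without unfed lean mouse 2 (adjusted p = 0.0120), without unfed lean mouse 3 (adjusted p = 0.0116), and without both mice that stood apart (adjusted p = 0.0128). Of 26 genes of lipid storage and transport, 21 were tested and 0 passed in unfed or in fed mice, with 8 and 6 at an unadjusted limma p under 0.05. Of 12 targets of PPAR alpha, the fatty acid burning relative of PPAR gamma, 0 passed in either state, with 2 and 9 at an unadjusted limma p under 0.05. All 12 had positive differences in fed mice, with a median log2 fold change of 0.99 where that of all genes was 0.01. In lean mice the meal lowered Angptl4 (an inhibitor of lipoprotein lipase and a target of PPARs) by a log2 fold change of -2.63 (SE 0.22), Cebpb by -1.88 (SE 0.145), and Ppargc1a (PGC-1 alpha, a coactivator of PPARs) by -1.90 (SE 0.26), each with an adjusted limma p of at most 0.00082. In obese mice the meal moved 0 of these 3 lists' genes past the threshold, where 5, 7, and 0 of them had an unadjusted limma p under 0.05. The meal responses of Angptl4 differed between the diets by 2.49 (SE 0.30, adjusted p = 0.0077 by limma), the only gene of the 3 lists for which that test passed. This last call was lost without any single lean mouse, without any single fed obese mouse, and without both mice that stood apart, with adjusted p-values of 0.010 to 0.027.

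S961 raised Cidec in fed mice. Cidec was at 2.75, 2.47, 3.77, and 4.48 RPKM in fed mice given vehicle, at 6.68, 9.86, 8.81, and 12.1 RPKM with S961, and at 11.3, 10.3, 5.95, and 11.1 RPKM with dex and S961. Every mouse given S961 was above every mouse given vehicle, and unfed mice given vehicle were at 3.41 to 3.69 RPKM, within the fed range. The log2 fold change against fed vehicle was 1.35 with S961 (SE 0.21, adjusted p = 0.0021 by limma) and 1.39 with dex and S961 (SE 0.21, adjusted p = 0.00038 by limma), or 2.55-fold and 2.62-fold on this scale. With dex alone Cidec was at 2.09 to 3.53 RPKM, and the log2 fold change of -0.29 (SE 0.21, adjusted p = 0.50 by limma) did not pass. All 3 treatments were compared with the same 4 vehicle mice. The adjusted p of Cidec with S961 ranged from 0.00037 to 0.048 over 31 alternatives, and that with dex and S961 from 3.7e-05 to 0.0084.

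Cidec was the 1 member of 4 tested that passed with S961, where 1.92% of 11353 genes passed (0.96% upward), and with dex and S961, where 10.6% passed (2.68% upward). With dex 0 of 4 passed against 3.19% of all genes, and 1 of the 4 had an unadjusted limma p under 0.05 (18.5% of all genes). The meal in vehicle mice moved 0 of 4 against 3.12% of all genes, with 0 at an unadjusted limma p under 0.05 (19.3% of all genes). Pparg was at 3.32 to 6.85 RPKM in fed vehicle, 2.96 to 4.34 with dex, 2.84 to 7.39 with S961, and 2.66 to 4.97 with both. Its mean was lower with dex, and it overlapped vehicle in every group, with log2 fold changes of -0.47 (SE 0.25, adjusted p = 0.32 by limma) with dex and -0.49 (SE 0.25, adjusted p = 0.22 by limma) with both. Cd36 was at 7.35 to 11.6 RPKM in fed vehicle and at 9.32, 18.8, 16.4, and 10.4 with S961. Of these, 2 mice were above all vehicle mice, and the log2 fold change was 0.50 (SE 0.28, adjusted p = 0.45 by limma). Fabp4 was at 9.93 to 11.3 RPKM in fed vehicle and at 15.1, 16.2, 23.4, and 9.25 with dex. Here 3 dex mice were above all vehicle mice and mouse 4 below them, and the log2 fold change was 0.50 (SE 0.20, adjusted p = 0.19 by limma). Without mouse 4, singled out after the data were seen, it became 0.73 (adjusted p = 0.017 by limma). Over 31 alternatives the adjusted limma p ranged from 0.017 to 0.403. Mogat1, not tested, was at 0.328 to 0.622 RPKM (4 to 10 reads) with S961 and at 0 to 0.362 RPKM (0 to 5 reads) in fed vehicle.

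**Figure D4:**
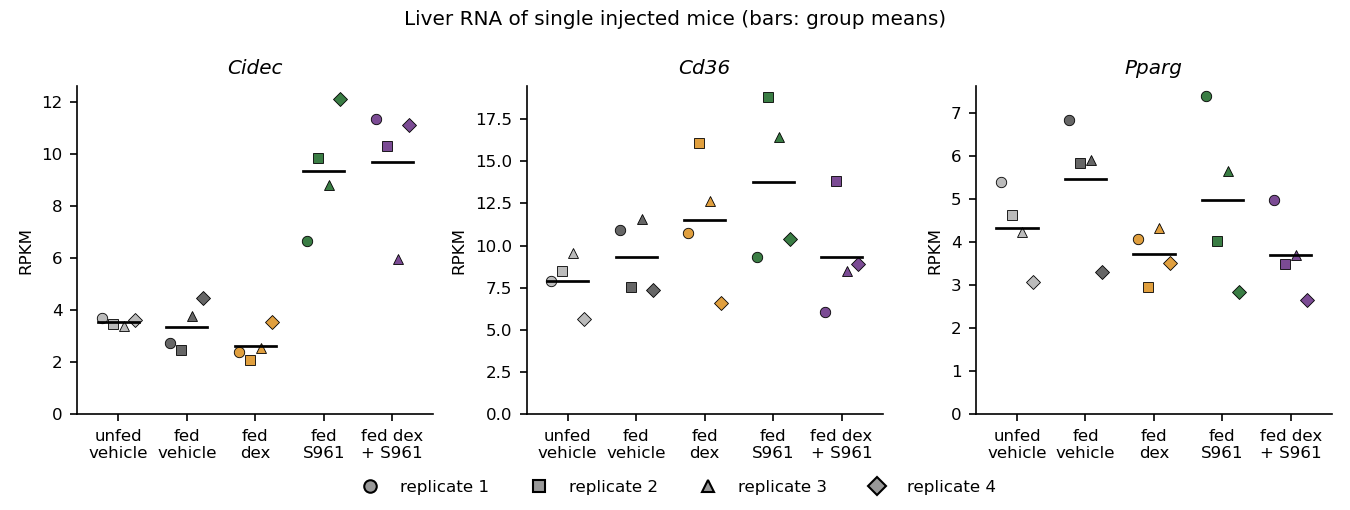
Level of Cidec, Cd36, and Pparg in RPKM (vertical axes from 0) in each injected mouse, with 1 point per mouse, its shape the mouse number, and bars for group means. For Cidec, the 8 mice given S961, alone or with dex, sat between 5.95 and 12.1 RPKM, above the fed vehicle mice at 2.47 to 4.48, while the groups overlapped for Cd36 and Pparg.

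Genes of fat oxidation and of the lipid droplet also rose with S961. In these mice, 6 of the 12 targets of PPAR alpha rose, among them Acot1, Angptl4, Ehhadh, and Fgf21, and 0 fell, with a median log2 fold change of 1.40 over the list and -0.08 over all genes. Fgf21, a fasting hormone, rose by 2.53 (SE 0.44) and Angptl4 by 1.64 (SE 0.29), each with an adjusted limma p of 0.0055. With the compared groups alone the call of Fgf21 was lost (adjusted p = 0.080 by limma). Of the 21 genes of lipid storage and transport tested, 4 rose (Plin2, G0s2, Acsl1, and Slc27a2) and 0 fell. Plin2, which coats droplets, rose by 1.52 (SE 0.21, adjusted p = 0.0011 by limma) and G0s2, an inhibitor of fat breakdown, by 2.16 (SE 0.53, adjusted p = 0.040 by limma). The call of G0s2 was lost without any of 10 single mice of the 20 (adjusted p up to 0.154). Of the 14 partners and regulators 1 rose, Ppargc1a, by 0.81 (SE 0.15, adjusted p = 0.0091 by limma), a call lost with the compared groups alone (adjusted p = 0.093 by limma). With dex and S961, 5 of 12, 6 of 21, and 2 of 14 of these lists rose and 0 fell, among them Pdk4 (a brake on glucose oxidation) by 2.48 (SE 0.56), the droplet proteins Plin5 by 1.38 (SE 0.12) and Plin4 by 1.72 (SE 0.21), and Ppargc1a by 1.08 (SE 0.15), with adjusted limma p-values of at most 0.0083. With S961, 2 of 8 macrophage genes fell (Adgre1 and Cd5l), the sum of the 8 being 63.7 to 95.1 RPKM against 92.8 to 139 in fed vehicle, and the sum of the 8 adipocyte genes was 5.59 to 8.69 against 3.41 to 8.57 RPKM. A sum over 8 endothelial genes was 77.4 to 86.0 RPKM with S961 and 87.6 to 100.2 in fed vehicle, without overlap, and 0 of the 8 passed, with 0 at an unadjusted limma p under 0.05. Their part in the result was not tested.

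Loss of GR in hepatocytes went with a higher mean of Pparg that did not pass the threshold. In unfed mice Pparg was at 2.76, 1.41, 3.11, and 2.50 RPKM in controls and at 2.96, 7.17, 6.68, and 4.76 RPKM in L-GRKO livers. Of the L-GRKO mice 3 were above all controls, and mouse 1 was within them. The log2 fold change was 0.98 (SE 0.27, adjusted p = 0.054 by limma), and 0 of the 4 genes tested passed an adjusted p of 0.05 where 6.68% of 11763 genes did. Of the 4, 1 had an unadjusted limma p under 0.05, against 20.1% of all genes. Without L-GRKO mouse 1, singled out after the data were seen, the value was 1.21 (adjusted p = 0.019 by limma). Over 17 alternatives the adjusted limma p of Pparg ranged from 0.019 to 0.154. Cd36 was at 4.32 to 10.8 RPKM against 5.13 to 12.6 in controls, Cidec at 1.20 to 2.93 against 1.34 to 5.49, and Fabp4 at 5.73 to 9.05 against 5.35 to 8.35, with overlap in all 3. Of the 12 targets of PPAR alpha 4 rose (Acaa1b, Cyp4a10, Ehhadh, and Vnn1) and 0 fell, among them Acaa1b, a peroxisomal thiolase, by 1.46 (SE 0.23, adjusted p = 0.0046 by limma). Of 21 genes of lipid storage 1 rose (Plin2) and 2 fell (Plin4 and Plin5), Plin5 by a log2 fold change of -1.28 (SE 0.24, adjusted p = 0.0099 by limma). The calls of Cyp4a10, Plin2, and Plin4 were lost without 1 of several single mice, with adjusted p-values of up to 0.148, 0.0913, and 0.101. The 14 partners and regulators held 1 that rose, Cebpa, and 1 that fell, Cebpb. A sum over 8 macrophage genes was 98.1 to 155 RPKM in L-GRKO and 94.9 to 193 in controls, with 0 of 8 passing. A sum over 6 stellate cell genes was 64.7 to 91.9 against 47.0 to 66.6 RPKM, with overlap. All 6 had positive differences and 1 was called higher (Lrat). A sum over 8 endothelial genes was 85.1 to 107 against 66.6 to 98.9 RPKM, with 0 of 8 passing. Of 6 hepatocyte genes 1 was called lower (Cps1). Their part in the result was not tested.

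Loss of Irs1 and Irs2 went with more Fabp4 RNA. In fed mice given dex, Fabp4 was at 29.7, 19.7, 18.3, and 24.6 RPKM in controls and at 33.0, 52.8, 60.1, and 41.6 RPKM in L-IRSdKO livers, and the groups did not overlap. The log2 fold change was 1.00 (SE 0.21, adjusted p = 0.014 by limma), and Fabp4 was the 1 gene of 5 tested that passed, where 17.4% of 13083 genes passed and 9.02% passed upward. The 5 include Mogat1, which passed the filter only through the controls and is given as a description. Markers of cells that are also known for Fabp4 were higher in the same livers. A sum over 8 endothelial genes was 155 to 193 RPKM in L-IRSdKO and 122 to 148 in controls, with 5 of the 8 called higher (Cdh5, Lyve1, Pecam1, Stab2, and Tek), and a sum over 8 macrophage genes was 329 to 453 against 208 to 361 RPKM, with 2 of the 8 called higher (Clec4f and Timd4). A sum over 6 stellate cell genes was 157 to 179 against 124 to 149 RPKM, without overlap, with 2 of the 6 called higher (Colec11 and Dcn). A sum over 5 bile duct genes was 7.87 to 13.9 against 19.7 to 46.2 RPKM, without overlap, with 2 of the 4 tested called lower (Krt7 and Spp1). The adipocyte sum was 8.08 to 9.45 against 7.53 to 10.1 RPKM. Their part in the result was not tested.

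Cd36 was at 14.6, 8.17, 7.05, and 17.2 RPKM in these controls and at 6.69, 36.8, 35.9, and 36.7 RPKM in L-IRSdKO livers. Of the L-IRSdKO mice 3 were above all controls and mouse 1 was below them. With all mice the log2 fold change of Cd36 was 1.09 (SE 0.54, adjusted p = 0.20 by limma). Without mouse 1, singled out after the data were seen, it was 1.68 (adjusted p = 0.0041 by limma). Over 17 alternatives the adjusted limma p ranged from 0.0041 to 0.378. Cidec and Pparg were also lowest of all 8 mice in that mouse, at 3.06 and 0.926 RPKM, whereas Irs1 was at 0.149 RPKM there, as low as in the other L-IRSdKO mice. In the other L-IRSdKO mice Cidec was at 10.7, 16.5, and 14.6 RPKM, and in controls at 13.2, 6.31, 7.51, and 6.45. Pparg was at 9.14, 2.21, 5.21, and 3.94 RPKM in controls and at 5.48, 3.33, and 3.14 in the others, a log2 fold change of -0.62 over all mice (SE 0.48, adjusted p = 0.41 by limma). Mogat1 rested on an estimated 1 to 8 reads per library and passed the filter only through the controls, and its fitted log2 fold change of -0.52 (SE 0.37) is a description. Among the lists, 8 of the 12 targets of PPAR alpha rose and 0 fell, with Pdk4 higher by 3.56 (SE 0.51, adjusted p = 0.0043 by limma). Of 21 genes of lipid storage 4 rose and 4 fell, among them Pnpla2, which breaks fat down, by 1.33 (SE 0.19, adjusted p = 0.0042 by limma) and G0s2, its inhibitor, by -1.87 (SE 0.32, adjusted p = 0.0069 by limma). Lipoprotein lipase (Lpl) rose by 2.22 (SE 0.49, adjusted p = 0.017 by limma), a call lost without L-IRSdKO mouse 2, 3, or 4 (adjusted p = 0.054, 0.055, and 0.053). Of 14 partners and regulators 2 rose, Ncoa2 and Ppargc1a, the latter by 2.18 (SE 0.25, adjusted p = 0.0021 by limma), and 1 fell, Cebpa.

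**Figure D5:**
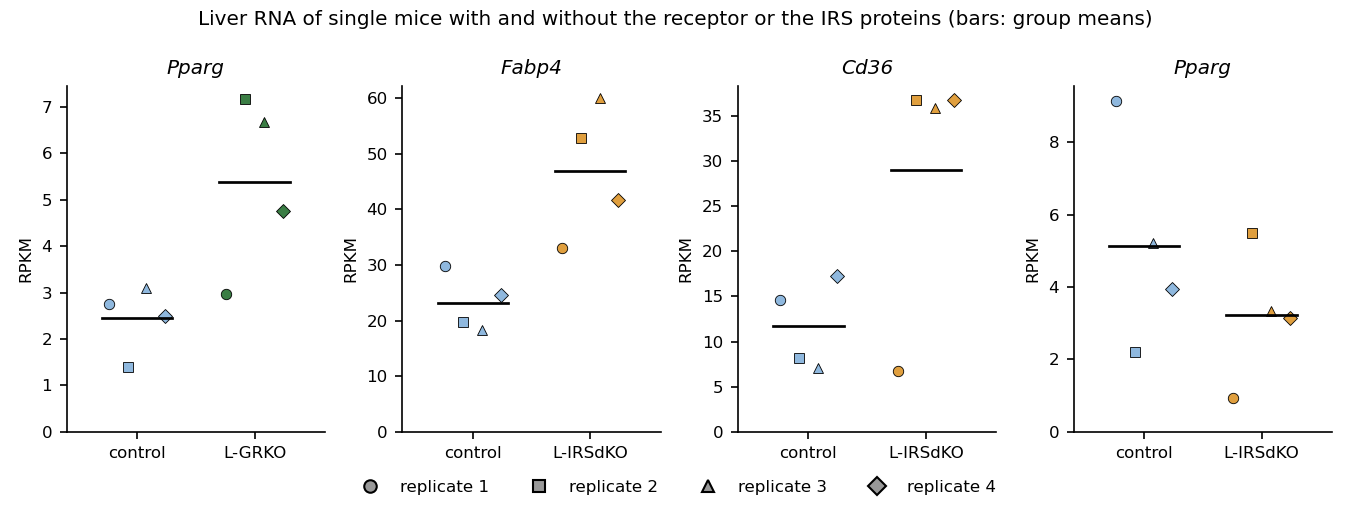
Level in RPKM (vertical axes from 0) of Pparg in L-GRKO and control mice and of Fabp4, Cd36, and Pparg in L-IRSdKO and control mice, with 1 point per mouse, its shape the mouse number, and bars for group means. Fabp4 did not overlap between the groups (33.0 to 60.1 against 18.3 to 29.7 RPKM), while Pparg of L-GRKO mouse 1 lay within its controls, and Pparg and Cd36 of L-IRSdKO mouse 1 lay below theirs.

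In uninjected NRF mice, both ZT10 livers held more Pparg and Cd36 RNA than the ZT14 livers, without passing the threshold. Pparg was at 3.22 and 4.05 RPKM before the dark phase (ZT10), and ZT14 livers had 1.98 and 1.46 RPKM when unfed and 1.91 and 2.46 RPKM when fed. In the same order Cd36 was at 15.0 and 13.1, at 8.69 and 9.90, and at 7.76 and 7.94 RPKM. Both ZT10 mice were above all ZT14 mice for either gene, and the log2 fold changes between ZT10 and ZT14-unfed were -0.90 (SE 0.17, adjusted p = 0.024 by limma) and -0.57 (SE 0.11, adjusted p = 0.026 by limma), which missed the threshold of 0.01. Cidec was at 0.801 and 0.745 RPKM at ZT10 and at 1.06 and 1.73 at ZT14-unfed, with a log2 fold change of 0.55 (SE 0.21, adjusted p = 0.15 by limma). Fabp4 had 6.85 and 9.87 RPKM in unfed and 4.57 and 4.81 RPKM in fed livers of ZT14, with a log2 difference of -0.75 (SE 0.19, adjusted p = 0.058 by limma). Of the 4 genes tested 0 passed with time and 0 with the meal, where 1.17% and 1% of 11003 genes did, and 3 and 1 of them had an unadjusted limma p under 0.05, against 26.4% and 27.7% of all genes. Mogat1 was at 0.061 to 0.285 RPKM (2 to 10 reads) in these livers, and Cidea at 0.052 RPKM or less (2 reads at most).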

How the data were processed

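The authors purified liver RNA with TRIzol, sequenced poly(A) libraries (ribosome-depleted ones for the uninjected NRF mice), aligned the reads with STAR to mm9, and deposited RPKM values per RefSeq transcript. They tested with DESeq2, which needs counts and was not used here. The deposited RPKM table held 35707 RefSeq IDs, of which 35407 had a symbol, for 54 libraries in 16 groups and 5 experiments, and 0 value columns were unused. GR and FOXO1 sites were called by the authors with HOMER against input (FDR 0.001, tag threshold 25, concordant between 2 replicates), DHSs on combined reads, and the deposited lists give positions only. RPKM keep no read counts, so depths and reads were estimated from the size of 1 read and cover counting error only, and the depth of the L-GRKO libraries could not be separated.

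Each experiment was fitted with limma (3.58.1, R 4.3.3), empirical Bayes with a variance trend, on log2(RPKM + 0.5) for genes that averaged 0.5 RPKM or more, with Benjamini-Hochberg adjustment over all genes. Thresholds were 0.01 (NRF and diet experiments) and 0.05 (injected, L-GRKO, and L-IRSdKO). The fit was tested on simulated data. Motifs were searched on both strands with Python 3.11.15, promoter windows of 300 bases around a start came from the RefSeq table of GRCm38.p6 and were placed on mm9 by exact match. The 6 genes were named in every comparison, list genes as counts with values for some that passed, and for each gene the 3 most correlated genes. The members and lists were chosen with earlier results of these data known. Alternatives were other pseudocounts, filters, scalings, models, RefSeq IDs, a replicate block, distances to sites, and leaving out single mice. Single genes of the lists that are withheld are not reported here by name.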

Additional observations from a re-analysis of the deposited data

Results flagged for a closer look

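Cd36 in L-IRSdKO mouse 1, at 6.69 RPKM, lay far from the other 3 mice of its group, by a gap of 0.97 of the group's whole range. It was the only such value among 38 sets of 4 mice, each for 1 gene, and chance marks about 1 in 20 of them.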

How the results depend on the processing

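Of the log2 differences under the alternatives, 1265 kept their direction and their side of the threshold, 62 lost a call, 7 gained one, and 2 reversed, and the number of the 6 genes called stayed the same in 318 cases and moved in 8. The 2 reversals were Cidec in unfed obese against lean mice, at -0.25 both without unfed obese mouse 2 and without the 2 mice that stood apart, and its range without single mice was -0.25 to 1.49. Without single mice, the number of genes called was 0 to 1 with dex, 0 to 1 in L-GRKO, and 1 to 2 in L-IRSdKO. In L-GRKO mice 1 gene, Pparg, was called with a filter at 2 RPKM (adjusted p = 0.0422 by limma) and 1, Pparg, with all RefSeq IDs (adjusted p = 0.0458 by limma). Within 100 kb, 5 genes had a GR site, against 49.9% of all genes, and within 20 kb 1 had a FOXO1 site, against 21.0%. The cause of these changes was not tested.

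Among injected mice, 28 of 40 pairs of the same number had a correlation of deviations over 0.1 (median 0.143, from -0.118 to 0.606), against a median of -0.053 for other pairs. In the other experiments the lowest was -0.202 and the highest 0.213. Since not every pair was over 0.1 in any experiment and no label ties the numbers to a batch, they were not taken as pairing the mice. With the replicate block, dex called 1 gene (Pparg, adjusted p = 0.0478 by limma), dex with S961 called 2 (Cidec and Pparg, adjusted p = 0.0240 by limma for the latter), and L-IRSdKO called 0 (Fabp4, adjusted p = 0.0590 by limma).

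Counts over all genes moved more, from 5 to 359 in unfed obese against lean mice, 24 to 480 with S961, and 1091 to 3864 in L-IRSdKO. Median-ratio scaling moved the median of all genes by more than 0.1 with time in NRF mice (-0.10 to 0.01), with their meal (0.12 to 0.00), and with dex and S961 (-0.14 to 0.00), and changed the share of calls that were higher from 50 to 70.4% with S961, 25.4 to 58.3% with dex and S961, and 66.7 to 44.2% in L-GRKO. With the compared groups alone, Fgf21 (adjusted p = 0.080 by limma) and Ppargc1a (adjusted p = 0.093 by limma) lost their calls with S961. Cidea and Mogat1 had no value under the stricter filter. Low depth limits both genes, and groups of 2 to 4 mice limit all tests.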
